A study of Homo sapiens with 6 samples.

Results

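Kinesins are motor proteins that walk along microtubules or shorten their ends. The kinesin genes measured here numbered 43 of 17534 genes on the arrays. They were taken by symbol (KIF followed by a digit, the minus-end motors KIFC1, KIFC2 and KIFC3, and KIFAP3, the cargo-binding subunit of kinesin-2), each read by the brightest of the probe sets that name that gene alone. A mitotic set of 12 genes was compared with the other 31, of which 16 encode motors or subunits known mainly for moving cargo, 14 encode other motors (ciliary, centriolar or regulating microtubule ends) and 1, KIF25-AS1, is an antisense locus and no motor.

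Mitotic kinesins build the spindle, move chromosomes and organise the midzone at which the cell divides. Most of their genes are transcribed late in the cell cycle, in G2 and mitosis, through promoters held by the DREAM complex when cells stop cycling and by the B-MYB and FOXM1 complexes when they divide. Cargo kinesins carry vesicles, organelles and ciliary particles in cells that divide and in cells that do not. In myeloma, an inhibitor of KIF11 has been tried as a drug.

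The cells were MM.1R, a human multiple myeloma line resistant to glucocorticoids. On 3 arrays the cells carried a control short hairpin vector (shCtrl), and on 3 arrays they had been given Epirubicin Hydrochloride, an anthracycline that poisons topoisomerase II and was added to inhibit proliferation. Since a vector is labelled for the controls only, its effect and that of epirubicin cannot be told apart; dose and duration are not stated in the labels. Separate cultures are not recorded for replicate arrays, and the p-values therefore reflect just how these samples vary, which may be technical spread.

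Values are log2 expression from Affymetrix PrimeView arrays, and the median of all values was 5.54. Calls required a limma p under 0.05 after Benjamini-Hochberg adjustment over 17534 genes, together with a fold change of 1.3 or more (0.379 on the log2 scale). Arrays of a group correlated at 0.99821 or more across probe sets, and no array stood apart. Of 15 plasma cell markers, 14 lay above the median signal in control arrays, and the list's mean ran from 10.31 to 10.32 in control and from 10.17 to 10.19 in epirubicin arrays, with CD38 (-1.18) and IRF4 (-0.49) called lower. Of 12 myeloid markers, 2 lay above the median signal in control, and 3 were called higher, ITGAM (3.75), CD68 (0.63) and S100A9 (0.53). The myeloid list's mean ran from 4.10 to 4.14 in control and from 4.60 to 4.61 with epirubicin, while its median log2 fold change was 0.13. Of 10 stromal markers, 1 lay above the median signal in control, and 2 were called higher, ACTA2 (1.55) and FN1 (0.98). The stromal list's mean ran from 4.08 to 4.16 and from 4.43 to 4.48, with a median log2 fold change of 0.09. No marker of T and NK, epithelial or neuronal cells was called by limma among 12, 9 and 12 (at an unadjusted p under 0.05, 2, 1 and 3 were higher and 0, 1 and 1 lower). Among all genes, 4.36% were called higher and 2.14% lower, and by the unadjusted limma p 21.5% were higher and 17.8% lower. The part of these markers in the kinesin results was not tested.

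Mitotic kinesin genes were lower with epirubicin, and the other kinesins showed no shared shift. Of the 12 mitotic genes 6 were called lower and 0 higher, where 2.14% of all genes were called lower and 4.36% higher. Of the other 31 none was called in either direction by limma at this threshold; at an adjusted p under 0.05 and any fold, 5 were lower and 3 higher, where 13.5% of all genes were lower and 15.6% higher. At an unadjusted p under 0.05, 6 were lower and 6 higher, where 17.8% of all genes were lower and 21.5% higher. These counts over all 31 other kinesins are near the shares over all genes. The lower genes, 5 and 6, were all among the 20 that read above the median signal in at least 1 group. No share over all genes was computed for that part. No mitotic gene was higher by either of these rules, and 10 and 11 were lower. As a median, the log2 fold change stood at -0.34 for the mitotic set, 0.02 for the rest and 0.02 over all genes. In bulk RNA, fewer cells in G2 and mitosis and less RNA per such cell cannot be told apart.

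The shift was of like size on each epirubicin array. Relative to each gene's control mean, the median over the mitotic set was -0.34, -0.31 and -0.36 on epirubicin arrays 1, 2 and 3, and between -0.01 and 0.02 on the control arrays. For the other 31 genes the same median was 0.01, 0.04 and 0.01 with epirubicin. All 12 mitotic log2 fold changes were below 0, against 44.3% of all genes, and in 11 of 12 the 3 epirubicin arrays lay below the 3 control arrays, as in 20.1% of all genes. Among the other 31, the epirubicin arrays lay below all control arrays in 6 genes and above them in 5, the latter as in 23.8% of all genes.

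**Figure D1:**
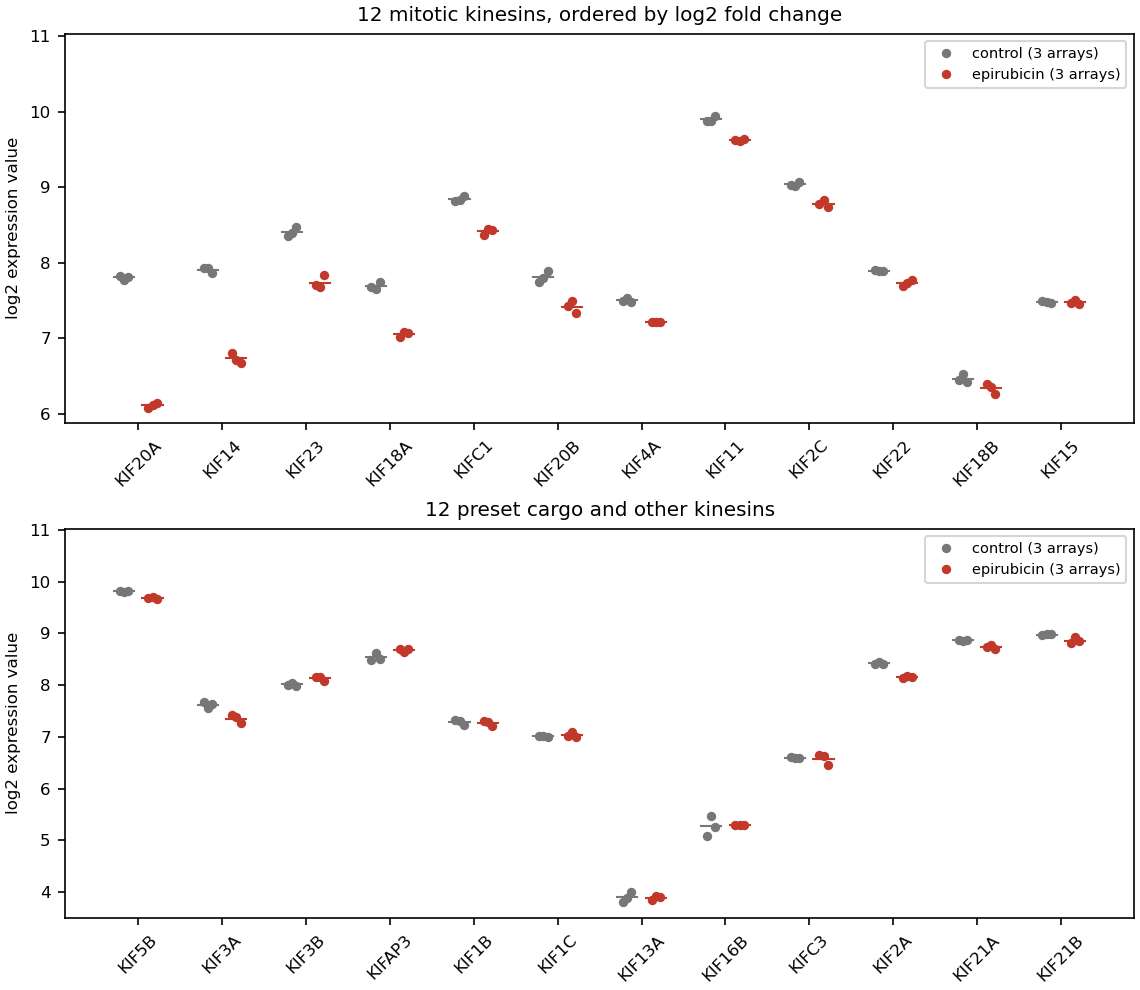
Log2 expression value (y axis) of the 12 mitotic kinesins (top) and of 12 preset cargo and other kinesins (bottom) on each array, in grey for 3 control and in red for 3 epirubicin arrays, with a bar at each group mean. KIF20A drops from about 7.81 to 6.11 and KIF14 from 7.91 to 6.74, whereas the KIF15 arrays overlap and KIF5B moves by 0.13.

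Of the 4 kinesins of cytokinesis, grouped here with their values known, KIF20A, KIF14 and KIF23 showed the largest decreases among the 43 members. KIF20A (MKLP2) carries the chromosomal passenger complex to the central spindle. It read 7.83, 7.78 and 7.81 on the control arrays and 6.08, 6.11 and 6.15 with epirubicin. The groups did not overlap, and the gene fell 3.23-fold (log2 fold change -1.69, SE 0.03, limma adjusted p = 2.88e-06). KIF14, which works with citron kinase at the midbody, read 7.93, 7.93 and 7.87 in control and 6.81, 6.72 and 6.68 with epirubicin. It fell 2.26-fold (-1.17, SE 0.04, limma adjusted p = 2.06e-05), again without overlap.

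KIF23 (MKLP1) forms centralspindlin, the midzone complex that recruits the trigger of the contractile ring. Its control values were 8.35, 8.40 and 8.47, and its epirubicin values 7.71, 7.68 and 7.83. All drug arrays lay below the controls, a 1.59-fold decrease (-0.67, SE 0.05, limma adjusted p = 0.000291). KIF20B (MPP1), which acts late in cytokinesis, read 7.75, 7.79 and 7.89 in control and 7.42, 7.49 and 7.33 with epirubicin. It was 1.32-fold lower (-0.40, CI -0.53 to -0.26, limma adjusted p = 0.00273) and was the called member closest to the fold threshold. Its call was lost without control replicate 3 or without epirubicin replicate 3, at -0.355 in both cases, and with quantile normalization, at -0.378. KIF20A, KIF20B and KIF23 are the 3 kinesin-6 genes, and all 3 were called lower.

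Promoter sequence is shown for the 3 genes with the largest decreases, for KIF15, a mitotic motor that was not lower (added after its values were seen), and for KIF5B, a cargo motor. The sequences are those of RefSeq on GRCh38.p14, from 150 bases before to 10 after the annotated start, 5′ to 3′ on the gene's strand. Capitals mark the letters TTTGAA or TTTAAA, forms of the cell cycle genes homology region (CHR) through which DREAM, B-MYB and FOXM1 complexes are recruited, and CCAAT, the box bound by NF-Y, each on either strand (TTCAAA and ATTGG are the reverse complements). A match is a match of letters and not a measured binding site.
KIF20A (GRCh38.p14, chr5:138178962-138179121, plus strand): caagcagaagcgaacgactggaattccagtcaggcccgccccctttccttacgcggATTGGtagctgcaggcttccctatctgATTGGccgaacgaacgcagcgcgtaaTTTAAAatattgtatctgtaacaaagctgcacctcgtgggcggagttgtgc
KIF14 (GRCh38.p14, chr1:200620742-200620901, minus strand): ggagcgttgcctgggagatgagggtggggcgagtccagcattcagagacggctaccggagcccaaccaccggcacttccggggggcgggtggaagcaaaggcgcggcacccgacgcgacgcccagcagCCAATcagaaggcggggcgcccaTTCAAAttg
KIF23 (GRCh38.p14, chr15:69414199-69414358, plus strand): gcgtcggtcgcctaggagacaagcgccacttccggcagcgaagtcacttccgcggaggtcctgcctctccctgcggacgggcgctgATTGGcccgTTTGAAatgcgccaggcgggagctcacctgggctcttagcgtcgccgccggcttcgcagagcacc
KIF15 (GRCh38.p14, chr3:44761644-44761803, plus strand): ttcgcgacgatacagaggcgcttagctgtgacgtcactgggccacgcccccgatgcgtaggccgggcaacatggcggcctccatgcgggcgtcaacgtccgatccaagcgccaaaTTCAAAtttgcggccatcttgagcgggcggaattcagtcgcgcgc
KIF5B (GRCh38.p14, chr10:32056416-32056575, minus strand): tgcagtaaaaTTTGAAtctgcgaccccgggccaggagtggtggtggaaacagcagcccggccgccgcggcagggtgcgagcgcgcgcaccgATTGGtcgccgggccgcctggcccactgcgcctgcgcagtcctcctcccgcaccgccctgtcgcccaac

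In the sequences above, KIF20A has ATTGG at -94 and -67 and TTTAAA at -41 from the start, KIF14 has CCAAT at -22 and TTCAAA at 2, and KIF23 has ATTGG at -64 and TTTGAA at -55, positions being those of the first letter. KIF15 has TTCAAA at -35 and no CCAAT. It does not stand for the mitotic genes not called, since KIF11, KIF4A and KIF18B, not shown, hold both TTTGAA and CCAAT. KIF2C, which was lower under the fold threshold, also holds no CCAAT. KIF5B holds both, further apart, with TTTGAA at -140 and ATTGG at -59.

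Across the whole RefSeq window (250 bases before to 50 after the start), 35 of the 43 members had an entry; KIF5A, KIF13B, KIF19, KIF21B, KIF26B, KIF27, KIFC2 and KIFC3 did not. TTTGAA was present in 9 of 12 mitotic and in 1 of 23 other kinesin promoters, against 15.4% of all 27305 promoters. TTTAAA was present in 4 of 12 and 1 of 23 (12.3% of all), and either form in 11 of 12 and 2 of 23 (24.3%). CCAAT was present in 10 of 12 and 7 of 23 (35.7%). Either form together with CCAAT was found in 9 of 12 and 1 of 23 (9.5%), and in all 6 of the mitotic genes called lower. The E2F core TTCCCGC, on either strand, was in 0 of 12 and 3 of 23 (6.6%). TTTGAA was in 5 of the 6 mitotic genes called lower, and the other, KIF20A, holds only TTTAAA. Of the mitotic genes not called, KIF11, KIF4A, KIF18B and KIF15 hold TTTGAA, KIF2C holds only TTTAAA, and KIF22 holds neither form. KIF11, KIF4A, KIF22 and KIF2C were also lower at a limma adjusted p under 0.05, under the fold threshold. Among the promoters of all genes called lower on these arrays, 23.4% of 316 held TTTGAA, against 12.1% of the 14155 promoters of genes measured here. In the 200 bases before the start alone, TTTGAA was in 5 of 12 mitotic promoters and 10.5% of all. Those 5 were KIF18A and KIF23, which are 2 of the 6 called lower, and KIF11, KIF4A and KIF15, not called. Either form together with CCAAT was in that window in 6 of 12 mitotic promoters, in 4 of the 6 called lower, in 1 of 23 others and in 5.4% of all.

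Among the motors of chromosome alignment, KIF18A was lower and the others moved less. KIF18A damps chromosome movements at the metaphase plate and read 7.68, 7.65 and 7.75 in control against 7.01, 7.08 and 7.07 with epirubicin. It fell 1.56-fold (-0.64, SE 0.04, limma adjusted p = 0.000118), with no overlap. KIF18B, its paralog at astral microtubule ends, read 6.44, 6.53 and 6.43 against 6.40, 6.36 and 6.26, and did not pass (-0.13, CI -0.24 to -0.01, limma adjusted p = 0.0967). KIF2C (MCAK), which depolymerises microtubules at centromeres, read 9.03, 9.01 and 9.07 against 8.77, 8.83 and 8.74. Its groups did not overlap, and the difference of -0.26 (CI -0.34 to -0.17, limma adjusted p = 0.00282) lay under the fold threshold.

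The chromokinesins, which bind chromosome arms, were both below the fold threshold. KIF4A, which also sets the length of the central spindle with PRC1, read 7.50, 7.53 and 7.48 in control and 7.22, 7.22 and 7.21 with epirubicin (-0.29, SE 0.03, limma adjusted p = 0.000894). A further probe set that names both KIF4A and its intronless copy KIF4B differed by -0.28. KIF22 (Kid), which pushes chromosomes from the poles, read 7.91, 7.89 and 7.89 against 7.69, 7.74 and 7.77 (-0.16, SE 0.03, limma adjusted p = 0.0136). Both genes were lower on all drug arrays. The KIF22 value depended on the probe set: the other 2 were called lower, at -0.38 and -0.47, and the first of these had almost the same mean signal as the one used (8.004 to 7.62 against 7.89 to 7.73).

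The motors of the spindle poles and of spindle bipolarity differed in their values. KIFC1 (HSET), the minus-end motor that focuses poles and clusters extra centrosomes, read 8.82, 8.83 and 8.89 in control and 8.37, 8.45 and 8.43 with epirubicin. It fell 1.35-fold (-0.43, SE 0.04, limma adjusted p = 0.000417). KIF11 (Eg5) pushes the poles apart. It read 9.87, 9.88 and 9.94 against 9.63, 9.61 and 9.64, without overlap, and its difference of -0.27 (CI -0.35 to -0.19, limma adjusted p = 0.00147) stayed under the fold threshold, although a second probe set was called lower at -0.42. KIF15, which can take over from KIF11, read 7.50, 7.49 and 7.47 against 7.47, 7.51 and 7.45. The groups overlapped, and the log2 fold change of -0.009 had a CI of -0.08 to 0.07 (limma adjusted p = 0.874), so that a decrease of 1.3-fold lay outside the interval. KIF15 has 1 probe set.

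**Figure D2:**
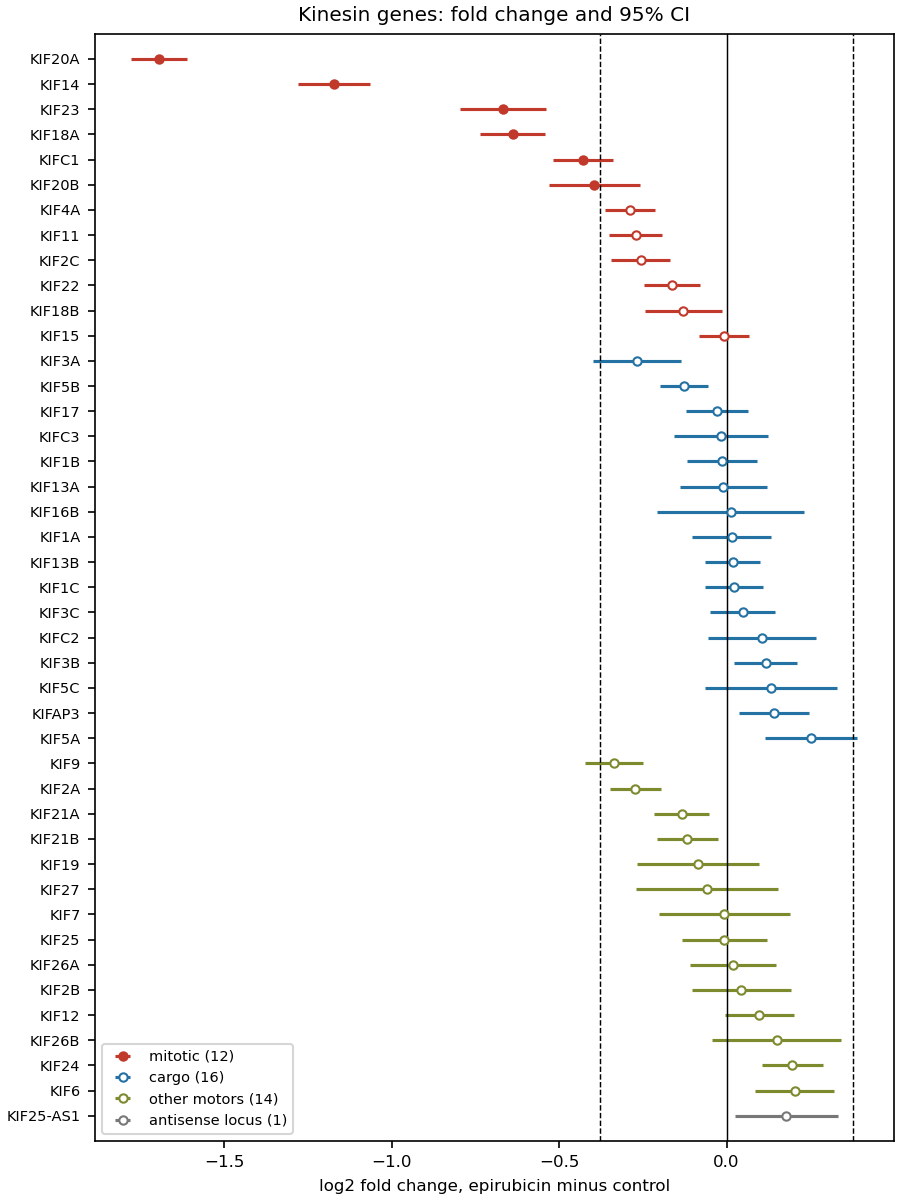
Log2 fold change, epirubicin minus control (x axis), with its 95% CI for each of the 43 kinesin genes, coloured by class; filled points were called and dashed lines mark the fold threshold of 1.3. The 6 filled points are all mitotic, from -1.69 for KIF20A to -0.40 for KIF20B, and the other 31 genes lie between -0.34 and 0.25.

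No cargo kinesin was called. Their log2 fold changes ran from -0.27 (KIF3A) to 0.25 (KIF5A), with a median of 0.02, and the SE ran from 0.03 to 0.09. KIF5B, the ubiquitous heavy chain of conventional kinesin, read 9.82, 9.79 and 9.81 in control and 9.69, 9.69 and 9.66 with epirubicin. The small gap between non-overlapping groups gave -0.13 (CI -0.20 to -0.06, limma adjusted p = 0.0201). Of its neuronal relatives, KIF5A differed by 0.25 (limma adjusted p = 0.0171), and KIF5C did not pass (0.13, limma adjusted p = 0.289). The KIF5A value came from 1 of 4 probe sets that differed among themselves, from -0.09 to 0.25.

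The kinesin-2 motor, which drives transport into cilia, is a trimer of KIF3A, KIF3B and KIFAP3, and these did not move as one. KIF3A read 7.67, 7.55 and 7.63 in control and 7.42, 7.37 and 7.26 with epirubicin, lower on every drug array (-0.27, CI -0.40 to -0.13, limma adjusted p = 0.012). KIF3B read 8.01, 8.05 and 7.98 against 8.16, 8.16 and 8.07 (0.12, CI 0.02 to 0.21, limma adjusted p = 0.068). KIFAP3 read 8.49, 8.61 and 8.50 against 8.69, 8.64 and 8.69 (0.14, CI 0.04 to 0.25, limma adjusted p = 0.0525). The drug arrays thus lay below all controls for KIF3A and above all controls for KIF3B and KIFAP3, and only KIF3A passed an adjusted p of 0.05, under the fold threshold. The KIF3B probe sets differed in direction: 1 of 4 lay at -0.18, below the controls on every drug array, and the mean of all 4 was 0.061. The remaining kinesin-2 members, KIF3C (0.05) and KIF17 (-0.03), did not pass.

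The kinesin-3 cargo motors of vesicles and endosomes were close to 0 on the probe sets used. KIF1B, which moves mitochondria and vesicles, read 7.32, 7.30 and 7.22 against 7.31, 7.29 and 7.21 (-0.01, CI -0.12 to 0.09). Of its 6 probe sets 5 lay below 0. The one furthest from 0, above the median signal, differed by -0.22, with every drug array below the controls. KIF1C read 7.01, 7.01 and 6.997 against 7.01, 7.09 and 6.99 (0.02, CI -0.07 to 0.11). On the probe sets used, KIF1B and KIF1C overlapped between groups, as did KIF1A (0.02) and KIF13B (0.02). KIF13A and KIF16B, endosomal motors, read below the median signal. KIF13A read 3.81, 3.89 and 3.998 against 3.85, 3.91 and 3.90 (-0.01, CI -0.14 to 0.12). KIF16B read 5.09, 5.48 and 5.27 against 5.30, 5.29 and 5.29 (0.01, CI -0.21 to 0.23), with more spread among controls, and its other probe set was called lower at -0.40. The minus-end motors KIFC3 (6.61, 6.59 and 6.59 against 6.65, 6.63 and 6.45; -0.02, CI -0.16 to 0.12) and KIFC2 (0.11, CI -0.05 to 0.27) did not pass.

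Of the 14 other motors none was called, and 5 passed an adjusted p of 0.05 under the fold threshold. KIF9, a motor of motile cilia and sperm tails, was the closest to the threshold from outside: its drug arrays lay below its controls (-0.34, CI -0.42 to -0.25, limma adjusted p = 0.000876). Its other 2 probe sets, both below the median signal, differed by 0.08 and -0.07. KIF2A, a microtubule depolymerase of the kinesin-13 family that also acts at spindle poles, read 8.41, 8.45 and 8.41 against 8.13, 8.18 and 8.15. Its groups did not overlap (-0.27, CI -0.35 to -0.20, limma adjusted p = 0.00122), 2 of its 3 probe sets were called lower (-0.42 and -0.48), and averaging them all gave -0.39, past the fold threshold.

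KIF21A and KIF21B restrain microtubule growth. KIF21A read 8.87, 8.86 and 8.87 against 8.74, 8.77 and 8.69 (-0.13, CI -0.22 to -0.05, limma adjusted p = 0.0255). KIF21B read 8.96, 8.98 and 8.98 against 8.81, 8.92 and 8.85 (-0.12, CI -0.21 to -0.02, limma adjusted p = 0.0646), which did not pass, and its second probe set differed by 0.13. KIF24, a centriolar motor that restrains cilium formation, and KIF6, a ciliary motor, were the 2 that lay higher, at 0.20 (limma adjusted p = 0.00965) and 0.20 (limma adjusted p = 0.0221). All 4 KIF6 probe sets lay above 0 and 1 of them was called higher at 0.52, though all 4 read below the median signal. KIF7, KIF12, KIF19, KIF25, KIF26A, KIF26B, KIF27 and KIF2B ran from -0.08 to 0.15 and did not pass, and 6 of these 8 read below the median signal, KIF12 and KIF19 being the exceptions. In all, 11 of the 31 genes outside the mitotic set read below the median signal in both groups, while no mitotic gene did. KIF25-AS1 differed by 0.18 (CI 0.02 to 0.33, limma adjusted p = 0.085).

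All 22 probe sets of the mitotic genes had a log2 fold change below 0, but that of KIF15 (-0.009) and 1 of KIF18B (-0.025) lay close to 0. By the probe set used per gene, 44.3% of all genes lay below 0. Of the 22 probe sets 11 were called lower and 0 higher, where 2.62% of all 47481 probe sets were called lower and 3.65% higher. Both probe sets of KIF14 were called, at -1.17 and -1.18, and both of KIF23, at -0.67 and -0.71, while KIF20A, KIF18A, KIF20B and KIFC1 rest on 1 probe set each. Under the looser rule that any 1 probe set suffices, the count was 8 of 12 mitotic genes lower, with KIF11 and KIF22 added, and among the other 31 KIF2A, KIF3A and KIF16B lower and KIF6 higher; by that rule 3.96% of all genes were lower and 5.53% higher. The called probe sets of KIF3A, KIF16B and KIF6 read below the median signal. Of the 85 probe sets of the other 31 genes, 41 lay below 0, 4 were called lower and 1 higher. KIF18B has 4 probe sets, of which 2 hold identical values.

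**Figure D3:**
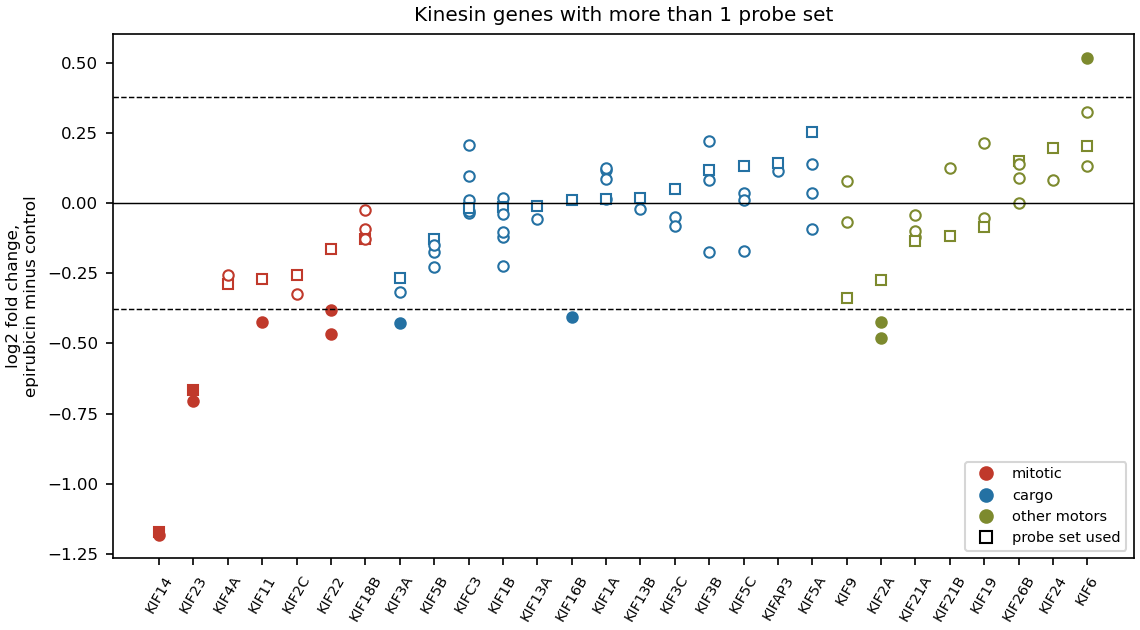
Log2 fold change (y axis) of every probe set of the kinesin motor genes that have more than 1, with the probe set used as a square, called probe sets filled and dashed lines at the fold threshold. Both KIF14 and both KIF23 probe sets sit well below the lower line, 2 of 3 KIF22 and 2 of 3 KIF2A probe sets lie beyond it, and the KIF16B probe sets lie apart at 0.01 and -0.40.

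Most genes of the mitotic partner list were lower as well. The list holds proteins with which mitotic kinesins work and also general genes of mitosis and proliferation, among them MKI67, CCNB1 and TOP2A (-0.40, called lower). Of its 39 genes 25 were called lower and 0 higher, where 2.14% of all genes were called lower and 4.36% higher. The median was -0.46, against 0.02 over all genes, and the list is no independent evidence of its direction. CENPE, the kinesin-7 of the kinetochore, carries no KIF symbol and so is no member. It read 8.27, 8.25 and 8.28 against 7.23, 7.31 and 7.15 and fell 2.05-fold (-1.04, SE 0.05, limma adjusted p = 3.69e-05). CDC20, CCNB1 and PLK1, which encode the anaphase activator, cyclin B1 and the mitotic polo kinase, had the largest decreases (-2.29, -1.79 and -1.13). Direct partners of the cytokinesis motors differed in size. In the passenger complex carried by KIF20A, CDCA8 (-0.86), BIRC5 (-0.77) and INCENP (-0.58) were called and the kinase gene AURKB was not (-0.13). RACGAP1, which completes centralspindlin with KIF23, was at -0.37, just under the fold threshold, with 2 of its 3 probe sets called lower, PRC1 was called at -0.41, and CIT, the citron kinase that works with KIF14, was at -0.002 (limma adjusted p = 0.985). These partners were picked for their ties to the motors with values known.

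Genes around the cargo motors were mostly not called. Of 26 measured cargo adapters and regulators 1 was called higher and 0 lower (median 0.05), where 4.36% of all genes were called higher and 2.14% lower. The 1 call, near that share, was FEZ1, a kinesin-1 adapter, at 4.08, 3.98 and 3.75 in control and 4.77, 4.95 and 5.00 with epirubicin (0.97, SE 0.10, limma adjusted p = 0.000734), on 1 of 4 probe sets and with both means below the median signal. Of the kinesin light chain genes KLC1 (0.08), KLC2 (-0.09), KLC3 (0.10) and KLC4 (0.25) none was called. Of 32 genes of the minus-end motor dynein and its cofactors 1 was called in each direction, again near the shares over all genes. SPDL1, which brings dynein to kinetochores in mitosis, was called lower (-0.51, SE 0.03, limma adjusted p = 9.88e-05), and DYNLT1, a dynein light chain, higher (0.39, SE 0.04, limma adjusted p = 0.000611). The DYNLT1 value lay close to the fold threshold and was not called without control replicate 3, without epirubicin replicate 3, or with array medians subtracted. Of 17 tubulin genes and 25 genes of intraflagellar transport, the cargo of kinesin-2, 0 were called in limma (medians -0.08 and -0.01), while at an adjusted p under 0.05 and any fold 6 tubulin genes were lower and 3 higher, and 3 intraflagellar transport genes were lower and 3 higher. At an unadjusted p under 0.05 these counts were 7 and 4, and 7 and 3. Over all genes, 13.5% were lower and 15.6% higher by the adjusted p, and 17.8% and 21.5% by the unadjusted p.

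**Figure D4:**
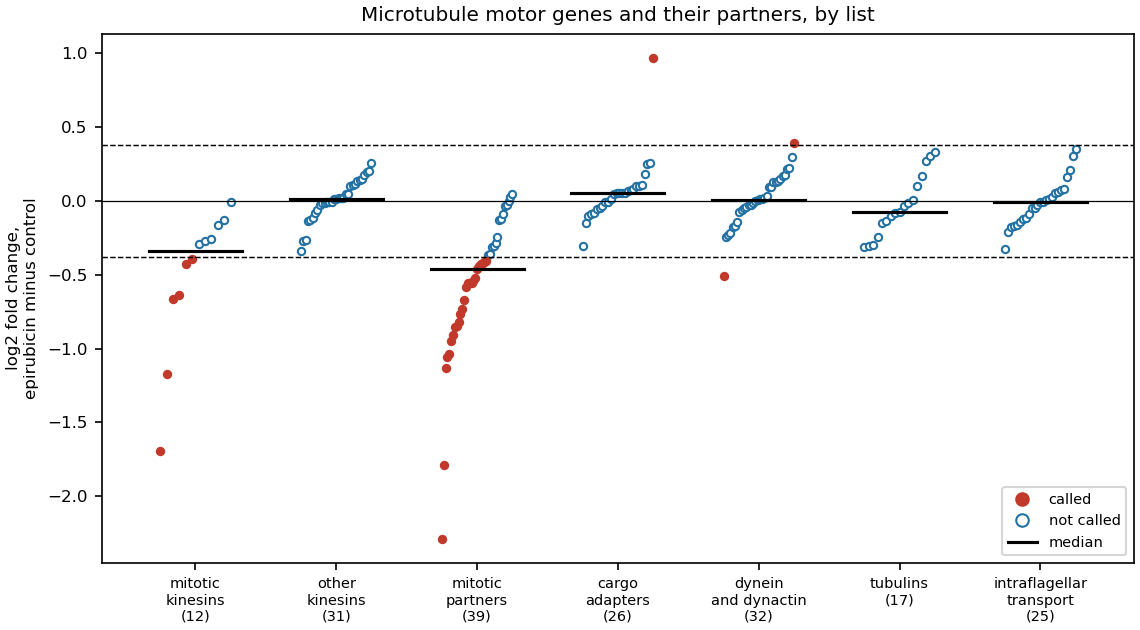
Log2 fold change (y axis) of each gene of 7 lists, with called genes in red, genes not called as open circles, a bar at each median and dashed lines at the fold threshold. The medians of the mitotic kinesins (-0.34) and of the mitotic partner list (-0.46) lie below 0, and those of the other 5 lists lie between -0.08 and 0.05.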

How the data were processed

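RNA of 3 control and 3 epirubicin samples was hybridised to PrimeView arrays. The authors deposited log2 expression values of 47481 probe sets for the 6 arrays; their range (1.41 to 13.73) gave the scale. The submitters' processing notes name affy, with no background correction or normalization stated. The 6 array medians ranged from 5.52 to 5.57, and differences are relative to the bulk of transcripts. The platform annotation gave 43976 probe sets 1 symbol, 1558 several and 1947 none; 43954 symbols were updated through Entrez numbers. Probe sets naming 1 gene were kept, and the brightest over 6 arrays was used per gene.

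The fit used lmFit and eBayes of limma 3.58.1 (R 4.3.3) with no covariate and was tested on simulated data. There, with normal spread drawn independently for each gene, 39.1% of simulated 1.3-fold changes and 84.8% of 1.5-fold changes were called. A simulated 1.3-fold change lies on the fold threshold itself, so the 39.1% is in part set by that threshold. Changes near the fold threshold can be missed. Thresholds were those of the series' design text. Values per array are given for the 12 mitotic members, called members and 12 preset motors; from each partner list the 3 called genes with the largest change each way, and CENPE, are named. Members and lists were chosen with earlier results of these data known. Neither scanner files nor detection calls were used here, and the number of arrays limits precision. Alternatives comprised other probe set choices, normalizations, filters and thresholds, another variance model, a replicate block and leaving out each array.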

Additional observations from a re-analysis of the deposited data

How the results depend on the processing

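Of the 6 mitotic genes called lower, KIF20A, KIF14, KIF23 and KIF18A were called under every alternative run. The count was 5 with quantile normalization (without KIF20B), 4 at a fold of 1.5 (without KIF20B and KIFC1), 8 with the most variable probe set, 10 with no fold threshold, and 5 to 6 on leaving out 1 array. Lower among all 17534 genes were 352 with quantile normalization and 101 at a fold of 1.5. With the most variable probe set 684 of them were lower, and with no fold threshold 2362.

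Other kinesins called lower numbered 1 with the mean of probe sets, 3 with the most variable probe set, 5 with no fold threshold and 3 when any probe set counted (an alternative chosen after seeing the data, as was leaving out the antisense locus). Those called higher numbered 1, 3 and 1 with the most variable probe set, no fold threshold and any probe set. These counts are out of 31. Over all 17534 genes, 353 were lower with the mean of probe sets. With the most variable probe set 684 were lower and 961 higher, and with no fold threshold 2362 and 2744. When any probe set counted, 3.96% were lower and 5.53% higher. The mitotic minus other median of -0.357 became -0.376 with the mean of probe sets, -0.446 with the most variable probe set, -0.371 with quantile normalization, and -0.384 to -0.345 on leaving out 1 array.

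Over all genes, 684 were lower with the most variable probe set, 2362 lower and 2744 higher with no fold threshold, and 101 lower and 320 higher at a fold of 1.5. Of the mitotic partners 13 were lower at a fold of 1.5. Of the cargo adapters 1 was lower with the most variable probe set, and with no fold threshold 1 was lower and 3 higher; 0 were higher with the mean of probe sets and among genes above the median signal, where FEZ1 is not tested. Of dynein and dynactin genes 2 were lower with the mean of probe sets and with the most variable probe set, 7 lower and 7 higher with no fold threshold, and 0 in either direction at a fold of 1.5; 0 were higher with array medians subtracted, and 0 to 1 on leaving out 1 array. With no fold threshold 6 tubulin genes were lower and 3 higher, and 3 intraflagellar transport genes lower and 3 higher; leaving out control or epirubicin replicate 1 gave 1 of the latter higher (0 to 1 over the arrays). TTTGAA was in 5 mitotic promoters in the 200 bases before the start alone.

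Among the 24 kinesins with values given per array, signs turned in 7, none of them called in the main setting. With the mean of probe sets KIF16B lay at -0.196, KIF21B at 0.00438 and KIFC3 at 0.0391; with the most variable probe set they lay at -0.405, 0.126 and 0.207. Quantile normalization gave 0.0135 for KIF15, 0.000343 for KIF1B and -0.0197 for KIF16B, and subtracting array medians gave -0.0106 for KIF1C and -0.0199 for KIF16B. On leaving out 1 array the ranges were -0.0225 to 0.00335 for KIF15, -0.0437 to 0.0146 for KIF1B, -0.00665 to 0.04 for KIF1C, -0.056 to 0.0397 for KIF13A, -0.0805 to 0.112 for KIF16B and -0.0542 to 0.0483 for KIFC3. The cause was not tested.

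Deviations of same-numbered arrays did not correlate (-0.059, 0 and -0.007), so no pairing by number was visible in the values. The labels do not say whether same-numbered arrays were prepared together, and these correlations cannot decide it. With the replicate number as a block, 6 mitotic genes were lower, 0 other kinesins were called, 25 partners were lower, and over all genes 372 were lower and 755 higher. Without scanner files, background was not examined, which limits the 11 members below the median signal.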
